A study of Mus musculus with 81 samples.

Results

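RMER10 and RMER15 are old families of mouse long terminal repeat (LTR) elements, and all their annotated copies were followed here through RNA-seq and methylated DNA data of fetal mouse testis cells. Every locus whose species name begins with RMER10 or RMER15 was taken, in each of the 4 deposited tables of mouse endogenous retrovirus (mERV) expression. They were 28585 of the 970384 loci, or 7413 RMER10 loci (RMER10A, 4450; RMER10B, 2963) and 21172 RMER15 loci (RMER15, 18072; RMER15-int, 3100). RMER10 made up 0.764% of all loci and RMER15 2.18%, and the tables placed both in the ERVL family.

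All animals were of the OG2 line on the C57BL/6J background, and every group carried its Pou5f1-EGFP transgene (strain name B6;CBA-Tg(Pou5f1-EGFP)2Mnn/J). The Pou5f1 promoter and distal enhancer drive EGFP in fetal germ cells, so that sorting on EGFP separates germ cells from the somatic cells of the testis. F0 females drank water with 50 nM tributyltin (TBT) or with the solvent DMSO, from before mating to weaning, and the sires were not exposed. F1 fetuses were therefore exposed in the womb, while F3 fetuses descended from exposed F0 females through F1 and F2 animals bred within their exposure group. Testes were taken from male fetuses at E18.5 and sorted into EGFP-positive P4 and P5 cells, which differ in side scatter, and EGFP-negative P6 cells. The RNA libraries numbered 62. F1 had 5 DMSO and 7 TBT libraries of P4, 4 and 7 of P5, and 5 and 7 of P6, and F3 had 4 DMSO and 5 TBT libraries of each population. Methylated DNA captured with an MBD protein (MBD-seq) was available for P6 only, with 3 DMSO and 4 TBT libraries in F1 and 5 and 7 in F3. Bulk libraries cannot separate a lower number of cells of a type from less RNA per cell. Replicates were separate libraries, and the sources used here do not say for each whether it was 1 animal or several, so p-values measure the spread between libraries. The F1 P4 and P5 libraries carry a leading number in their names, whose meaning is not given. The 7 TBT libraries of each population carry only 45 (3 libraries) and 47 (4 libraries), and the DMSO libraries carry 43, 44 and 48, so that each number belongs to 1 exposure.

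An LTR is the repeat that flanks a retrovirus integrated into the genome. It carries the promoter and the polyadenylation signal of the virus, and a solitary LTR remains after the internal part is lost by recombination between both ends. ERVL elements are an ancient group of such retroviruses. Their copies are mostly degenerate, sit in introns and between genes, and can be read either from a promoter of their own or within the transcript of a host gene. Fetal male germ cells erase and then restore DNA methylation over repeats, with the piRNA pathway and MORC1 among the known silencing factors. RMER10A, RMER10B and RMER15 are annotated as LTRs, and RMER15-int is annotated as the internal part belonging to RMER15.

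The copies with the highest mean level over all 62 RNA libraries are shown first, in the GRCm38/mm10 build and on the plus strand of the genome. The strand of each element is not given in the files. Capitals mark the letters TATAAA (the TATA box) and AATAAA or ATTAAA (the polyadenylation signals), searched on both strands. The first RMER10A copy, at chr17:33836287-33836650, lies in an intron of Ndufa7 (plus strand), which encodes a subunit of respiratory complex I, and the second, at chr4:146065714-146066117, is the highest RMER10A copy outside genes, in the zinc finger gene cluster of distal chromosome 4. The RMER10B copy, at chr1:160198642-160198921, lies in an intron of Mrps14 (plus strand), a protein of the mitochondrial ribosome. The first RMER15 copy, at chr17:15485542-15485912, lies in an intron of Psmb1 (minus strand), a subunit of the proteasome core, and the second, at chr4:129382601-129383106, is the highest RMER15 copy outside genes, 4484 bases upstream of the start of Zbtb8a, a BTB zinc finger gene. The RMER15-int copy, at chr5:139258799-139259514, lies in an intron of Get4 (plus strand), which acts in the insertion of tail-anchored proteins. The RMER10B copy is shown whole and the others by their first 300 bases.
RMER10A in Ndufa7, chr17:33836287-33836586: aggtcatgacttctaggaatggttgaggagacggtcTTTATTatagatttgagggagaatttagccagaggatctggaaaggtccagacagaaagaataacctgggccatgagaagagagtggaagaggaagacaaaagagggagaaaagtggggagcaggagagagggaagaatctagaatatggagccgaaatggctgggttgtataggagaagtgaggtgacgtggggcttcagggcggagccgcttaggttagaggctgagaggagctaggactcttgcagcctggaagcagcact
RMER10A outside genes, chr4:146065714-146066013: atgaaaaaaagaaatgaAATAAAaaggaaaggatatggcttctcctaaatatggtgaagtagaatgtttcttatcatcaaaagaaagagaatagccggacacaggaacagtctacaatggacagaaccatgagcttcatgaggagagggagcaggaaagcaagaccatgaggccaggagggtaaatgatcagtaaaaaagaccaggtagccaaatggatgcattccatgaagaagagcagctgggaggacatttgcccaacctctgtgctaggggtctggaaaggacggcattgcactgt
RMER10B in Mrps14, chr1:160198642-160198921: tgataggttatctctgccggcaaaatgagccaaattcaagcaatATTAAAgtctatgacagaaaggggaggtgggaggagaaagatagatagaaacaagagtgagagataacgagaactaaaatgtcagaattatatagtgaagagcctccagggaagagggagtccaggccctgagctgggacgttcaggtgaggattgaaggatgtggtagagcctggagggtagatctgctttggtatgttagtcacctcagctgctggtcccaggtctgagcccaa
RMER15 in Psmb1, chr17:15485542-15485841: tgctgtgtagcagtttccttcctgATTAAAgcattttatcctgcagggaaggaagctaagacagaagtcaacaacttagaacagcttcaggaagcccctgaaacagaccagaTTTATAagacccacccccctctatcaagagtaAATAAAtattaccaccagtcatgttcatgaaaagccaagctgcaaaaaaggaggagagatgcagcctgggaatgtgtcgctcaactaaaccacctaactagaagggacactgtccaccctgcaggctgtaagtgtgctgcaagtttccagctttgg
RMER15 outside genes, chr4:129382601-129382900: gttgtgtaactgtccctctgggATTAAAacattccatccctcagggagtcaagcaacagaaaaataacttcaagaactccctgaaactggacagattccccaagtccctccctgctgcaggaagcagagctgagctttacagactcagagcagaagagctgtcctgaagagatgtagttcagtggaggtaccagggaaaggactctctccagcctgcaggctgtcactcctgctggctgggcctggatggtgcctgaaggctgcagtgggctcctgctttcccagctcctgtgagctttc
RMER15-int in Get4, chr5:139258799-139259098: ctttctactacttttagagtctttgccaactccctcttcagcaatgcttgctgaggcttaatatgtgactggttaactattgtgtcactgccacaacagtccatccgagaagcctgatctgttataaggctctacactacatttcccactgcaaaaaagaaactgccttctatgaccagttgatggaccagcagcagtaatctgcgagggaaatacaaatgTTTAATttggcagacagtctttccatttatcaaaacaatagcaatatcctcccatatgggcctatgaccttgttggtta

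Only the Psmb1 copy held TATAAA, as TTTATA, and it also held both polyadenylation signals. Both RMER10A copies held AATAAA. The Mrps14 copy, the RMER15 copy near Zbtb8a and the Get4 copy held ATTAAA on either strand. Among the first 300 bases of all 431702 LTR loci that reach this length, 24.4% held TATAAA, 35.5% AATAAA and 25.7% ATTAAA. These matches describe letters and not functional sites.

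Over the whole families, RMER10 and RMER15 were poor in CpG. Their loci had 0.612 (RMER10A), 0.562 (RMER10B), 0.584 (RMER15) and 0.643 (RMER15-int) CpG dinucleotides per 100 bases, against 0.882 over all other LTR loci. This was 10.4%, 9.46%, 12.1% and 14.2% of the number that their base composition would give, against 18.4% elsewhere. GC content was higher in RMER10 than in RMER15, at 48.6% in RMER10A and 48.8% in RMER10B against 43.97% in RMER15 and 42.6% in RMER15-int, with 43.8% over other loci. Among loci of 200 to 400 bases, ATTAAA was found in 39.0% of RMER10B copies and in 11.9% of RMER10A and 9.68% of RMER15 copies, against 24.9% of other loci, and TATAAA in 13.8%, 20.9% and 15.5% of RMER10A, RMER10B and RMER15 copies, against 25.4%. Between 150 long copies of each species, RMER10A and RMER10B aligned to each other with a median identity of 71.9% over a median of 178 bases. Pairs within a species had median identities of 70.4% (RMER10A), 71.1% (RMER10B), 70.1% (RMER15) and 69.0% (RMER15-int). No alignment of 100 bases or more was found between RMER10 and RMER15 copies, or between RMER15 and RMER15-int.

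The loci were short remnants, with median lengths of 296 bases in RMER10A, 223 in RMER10B, 180 in RMER15 and 270 in RMER15-int. Most lay outside genes. In RMER10, 62.6% were outside annotated genes, 35.2% in introns and 2.24% overlapped an exon, and in RMER15 65.9%, 31.3% and 2.75%, against 64.5%, 33.0% and 2.48% of all LTR loci. At least 1 read in any library was seen at 70.4% of RMER10 loci and 62.8% of RMER15 loci, against 65.7% of all loci. In introns these shares were 86.9% and 82.5%, and outside genes 60.2% and 52.5%. RMER15 copies were also the shorter, and the part of length in this difference was not tested.

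The reads ran opposite to the loci. Introns held 35.2% of RMER10 loci but between 80.6% and 94.8% of the RMER10 signal, depending on the population, where signal is the sum of the deposited CPM, the read counts scaled to library size by TMM. Loci outside genes gave 2.02%, 5.32% and 1.12% of the RMER10 signal in F1 P4, P5 and P6, and 4.49%, 11.9% and 0.490% in F3. In RMER15 they gave 2.19%, 4.53% and 1.82% in F1 and 4.24%, 9.58% and 0.962% in F3. Over all LTR loci these shares were 2.16%, 5.65% and 2.29% in F1 and 4.54%, 12.4% and 1.35% in F3. In both families and both generations P5 had the largest share from outside genes.

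**Figure D1:**
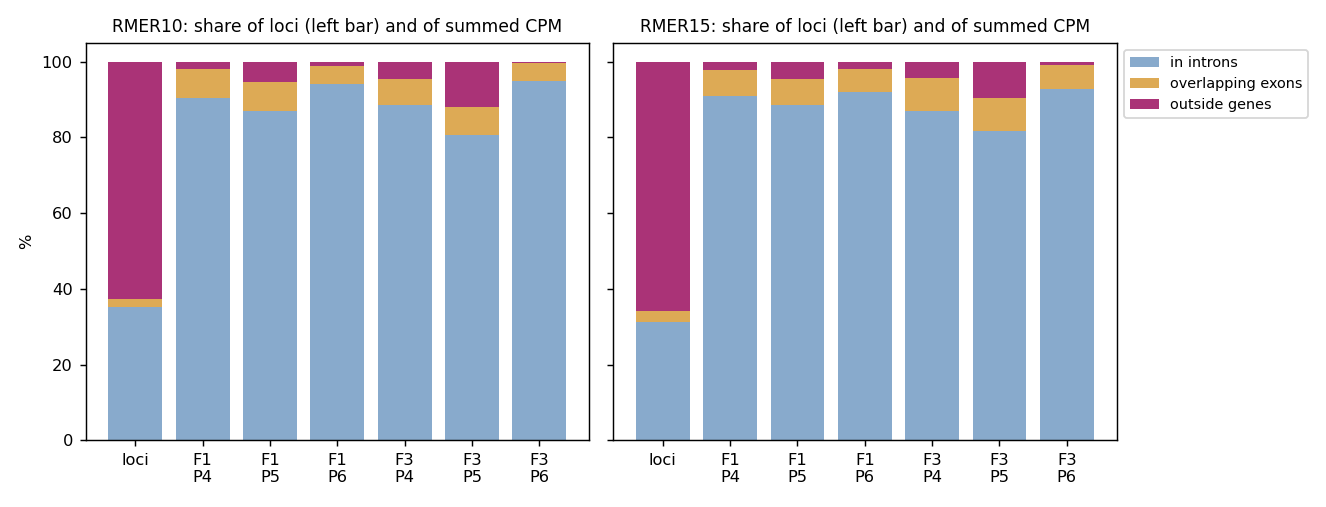
Share of RMER10 (left) and RMER15 (right) loci, first bar, and of their summed CPM in each population, other bars, by place in percent. Colours stand for loci in introns, overlapping exons and outside genes. Loci outside genes are 62.6% of RMER10 and 65.9% of RMER15 loci but at most 11.9% and 9.58% of the signal, in F3 P5.

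The depth of the RNA libraries, as reads at all LTR loci, ran from 246520 (an F3 P5 TBT library) to 8161548 (an F3 P5 DMSO library). The lowest F1 library had 2824806 reads, whereas an F3 P4 TBT library had 833449. The 13 germ cell marker genes were readable only through LTR loci within 11 of them. Their summed level was 9300 to 22300 CPM in F1 P4 and P5 24.7 to 49.9 in F1 P6 and 14.4 to 242 in F3 P6, and it fell to 1321 CPM in the lowest F3 P4 TBT library, 2018 in the lowest F3 P5 DMSO library and 187 in the lowest F3 P5 TBT library. The 4 readable genes of 7 Sertoli cell markers summed to 797 to 1141 CPM in P6 and at most 100 elsewhere. The 4 readable of 5 peritubular or stromal markers summed to 411 to 735 CPM in P6 and at most 43.7 elsewhere. Leydig cell and endothelial markers separated the populations less. The 2 readable of 5 Leydig cell markers summed to 3.63 to 204.5 CPM in F1 P4 and 39.6 to 317 in F1 P6. The endothelial gene Pecam1 had means of 27.4 CPM in F1 P5 and 8.91 in F1 P6. The other endothelial genes went the other way, with 4.19 and 87.2 (Cdh5), 29.0 and 31.4 (Tek) and 0.246 and 0.473 CPM (Kdr). F3 P4 and P5 libraries were thus far less alike than those of F1, and their values are given with that spread.

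RMER10 took a nearly constant share of the LTR reads. Over the 62 libraries it held between 0.818% and 1.05% of the reads, with a median of 0.859%, and RMER15 held between 1.97% and 2.67%, with a median of 2.22%. Beneath this the species of RMER10 moved apart by population. In F1, RMER10A held 0.445% ± 0.00725 (SD, n = 12) of the reads in P4, 0.459% ± 0.00774 (n = 11) in P5 and 0.522% ± 0.0120 (n = 12) in P6. RMER10B held 0.420% ± 0.0104, 0.411% ± 0.0109 and 0.320% ± 0.00792 in the same populations. The F1 P6 libraries, at 0.502% to 0.542% for RMER10A and 0.311% to 0.338% for RMER10B, did not overlap with P4 or P5 libraries of that generation. RMER10A was higher and RMER10B lower in P6.

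The same order was seen in F3, where RMER10A held 0.462% ± 0.0594 in P4, 0.484% ± 0.0454 in P5 and 0.524% ± 0.00955 in P6 (n = 9 each), and RMER10B 0.434% ± 0.0241, 0.409% ± 0.0108 and 0.319% ± 0.00507. RMER10A libraries overlapped between populations in F3, since P4 ran from 0.423% to 0.591% and P5 from 0.450% to 0.600%. RMER10B did not overlap, with P6 at 0.309% to 0.326% below all P4 and P5 libraries. RMER15 was 2.00% ± 0.0373, 1.98% ± 0.0447 and 1.83% ± 0.0394 in F1 P4, P5 and P6 and 2.23% ± 0.171, 1.97% ± 0.141 and 1.82% ± 0.0161 in F3. RMER15-int held means of 0.259% to 0.262% of the reads in the F1 populations and 0.260% in F3 P6, and as little as 0.137% in an F3 P5 TBT library. P6 was normalised in tables of its own, so these shares are set beside those of P4 and P5 with no test.

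**Figure D2:**
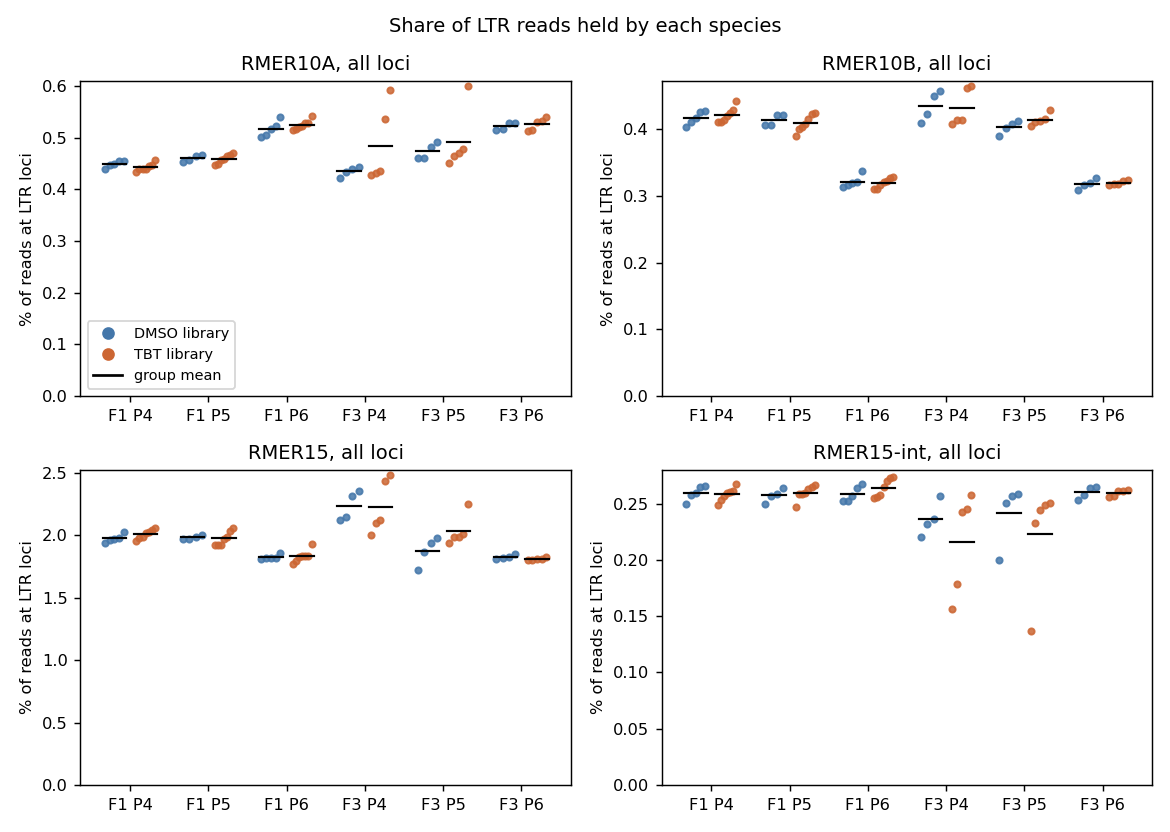
Share of all reads at LTR loci held by RMER10A, RMER10B, RMER15 and RMER15-int, in percent, in each of the 62 RNA libraries by generation and population. Points are libraries coloured by exposure and bars are group means. RMER10A is higher and RMER10B lower in P6 than in P4 and P5, and F3 P4 and P5 libraries scatter more widely.

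Per length, RMER10 and RMER15 as groups had 4.68 and 4.67 CPM per kb in F1 P4. By species this level was 3.87 CPM per kb in RMER10A, 6.0 in RMER10B, 5.31 in RMER15 and 2.42 in RMER15-int, against 3.32 over all LTR loci. In P6 the RMER10 species were close in level, at 4.29 and 4.32 CPM per kb in F1 and 4.31 and 4.30 in F3 for RMER10A and RMER10B, and RMER15 stood at 4.59 and 4.56. A few loci carried much of the signal. The 10 highest loci gave 16.8% of the RMER10 signal and 16.1% of the RMER15 signal in F1 P4, and 63 RMER10 loci and 144 RMER15 loci made up 50% of it. In F1 P6 this took 101 and 245 loci.

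In germ cells the highest RMER10 locus was the RMER10A copy in Ndufa7, in each of the 4 germ cell sets. Its level was 216 CPM ± 37.4 in F1 P4 (145 to 274, n = 12), 180 ± 46.4 in F1 P5 (n = 11), 650 ± 360 in F3 P4 (223 to 1252, n = 9) and 356 ± 275 in F3 P5 (n = 9). In P6 it was 148 ± 63.7 in F1 and 96.3 ± 7.15 in F3. Next in F1 P4 were an RMER10A copy in a noncoding exon of Akr1b3, an aldose reductase gene (chr6:34307259-34307607, 194 ± 21.3), and an RMER10A copy in an intron of Ghitm, which encodes a protein of the inner mitochondrial membrane (chr14:37128257-37128385, 175 ± 15.6). In F1 P5, Akr1b3 stood at 135 ± 28.9 and the Mrps14 copy at 116 ± 19.1. In F3 P4 the Mrps14 copy stood at 430 ± 166 and Akr1b3 at 269 ± 79.0. In F3 P5 the Mrps14 copy stood at 236 ± 179, and a copy in Selenok, a selenoprotein of the endoplasmic reticulum, at 150 ± 115 (RMER10A, chr14:29972594-29972903). The standard deviations of these neighbours in rank overlap in every germ cell set.

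The RMER15 leaders of P4 were the copies in Psmb1. The copy at chr17:15485542-15485912 had 406 CPM ± 67.5 in F1 P4 (294 to 536, n = 12), 290 ± 76.7 in F1 P5, 701 ± 250 in F3 P4 and 362 ± 247 in F3 P5, and 156 ± 51.7 and 113 ± 11.2 in F1 and F3 P6. The next copies in rank, chr17:15485923-15485966 and chr17:15487594-15487637 of the same gene, had the same mean, SD and range in F1 P4. In F1 P5 a copy in Rpn1, a subunit of the oligosaccharyltransferase (RMER15, chr6:88098583-88098813), was highest at 329 ± 39.9 (285 to 403, n = 11).

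The 3 highest loci in somatic cells lay in other genes. In F1 P6 the 3 highest RMER10 loci were RMER10A copies in introns of Txn1, the gene of thioredoxin (chr4:57945782-57946152, 189 ± 47.4), Ndfip1, an adaptor of Nedd4 family ligases (chr18:38431869-38431958, 173 ± 44.4), and Sin3b, a transcriptional corepressor (chr8:72735935-72736322, 149 ± 25.7). The Ndufa7 copy, at 148 ± 63.7, was within the spread of these. In F3 P6 they were Txn1 (139 ± 18.3), a copy in the ubiquitin ligase gene Nedd4 (chr9:72700405-72700560, 135 ± 8.90) and Ndfip1 (131 ± 10.3), whose standard deviations overlap. The RMER15 leaders of F1 P6 were copies in Ranbp1, a Ran-binding protein gene (chr16:18242304-18242404, 217 ± 46.9), Gm49673 (chr17:8129911-8130057, 190 ± 44.9), which also overlaps Rnaset2a, and Gpc3, a glypican gene (chrX:52407520-52407585, 185 ± 22.8). In F3 P6 they were Gpc3 (199 ± 30.3), Nedd4 (chr9:72735773-72736055, 181 ± 13.5) and Ranbp1 (155 ± 13.4).

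Loci in introns and loci outside genes differed in 3 measured respects. Among intronic loci with 100 or more reads, 263 of 1227 RMER10 loci (21.4%) and 683 of 2808 RMER15 loci (24.3%) had exactly the same value as another locus in every library, against 21.0% of other intronic loci. Outside genes this held for 0 RMER10 loci and 1 RMER15 locus. Intronic loci were also compared with the preceding and following LTR loci of 100 or more reads in the same gap between exons. Of those with such a neighbour, 873 of 1035 RMER10 loci (84.3%) and 2119 of 2424 RMER15 loci (87.4%) were within 5% of the neighbour closer in level. Outside genes 16.0% and 8.16% were within 5% by the same measure. Level rose more steeply with length outside genes. From loci of at most 150 bases to those over 300 bases the mean went from 0.0415 to 0.112 CPM in RMER10 and from 0.0304 to 0.132 CPM in RMER15 outside genes, but went from 2.53 to 3.22 and from 3.51 to 3.27 CPM in introns. How reads that span an intron were counted is not given in the sources used here.

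RMER10 copies inside marker genes followed the cell type of the gene. RMER10A in Tdrd9, a piRNA pathway gene, had mean levels of 56.0, 42.4 and 0.0239 CPM in F1 P4, P5 and P6, and 18.3, 20.8 and 0.159 CPM in F3. RMER10B in Piwil2, which encodes a PIWI protein, had 93.7, 66.7 and 0.537 CPM in F1 and 30.4, 35.1 and 0.5004 CPM in F3. RMER10B in Morc1, which silences transposons in germ cells, had 52.4, 35.8 and 0.0785 CPM in F1 and 35.3, 27.8 and 0.0551 CPM in F3. A pair of RMER10A copies in the same gene shared means of 13.3, 10.49 and 0 CPM in F1 and 9.05, 7.26 and 0 CPM in F3. RMER10A in Myh11, a smooth muscle myosin gene, ran the other way, with 0.122, 0.117 and 5.999 CPM in F1. RMER15 copies in marker genes were hardly read. The 2 copies in Pecam1, an endothelial gene, were at 0 in every population, and copies in Tek (endothelium), Ptprc (blood cells) and Adgre1 (macrophages) had means of at most 0.994 CPM in any population. A pair of Adgre1 copies was higher in F3 P5, at 0.431 CPM, than in F3 P6, at 0.269 CPM.

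P5 was compared with P4 within each generation, as both populations stand in 1 table. The fit was limma on log2(CPM + 1 unit), with exposure as a covariate, over all loci with a mean of 5 units or more. A unit is about what 1 read is worth, 0.229 CPM in the F1 comparison. In F1, 330 of 849 tested RMER10 loci and 819 of 2049 tested RMER15 loci passed an FDR of 0.05, against 39.3% of all 101401 tested loci. They were 159 higher and 171 lower in RMER10 and 366 higher and 453 lower in RMER15, where 17.6% of all loci were higher and 21.6% lower. The median log2 difference was −0.07 in RMER10 and −0.11 in RMER15, and −0.11 over all tested loci. The share of calls in the RMER families was thus near the background. The called loci had 305 and 722 distinct sets of values and lay in 240 and 494 genes.

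This split depended on the scaling. Scaled to a common total, P5 had 189 higher and 97 lower RMER10 loci and 433 higher and 245 lower RMER15 loci, and with median-ratio scaling 187 and 106, and 433 and 264. Of the tested loci 33.2% in RMER10 and 32.9% in RMER15 were then called with a common total, against 32.4% of all loci. All loci turned in the same way, with 21488 higher and 11642 lower with a common total and 21167 and 12718 with median-ratio scaling, so that the families again followed the background. The median of all loci then moved from −0.11 to 0.04 and 0.02. By place, 294 of 759 tested RMER10 loci in introns (38.7%), 19 of 52 in exons (36.5%) and 17 of 38 outside genes (44.7%) were called, and all 17 outside genes were higher in P5. Among RMER15 loci it was 745 of 1799 (41.4%), 54 of 154 (35.1%) and 20 of 96 (20.8%), of which 16 outside genes were higher and 4 lower. Over all loci the shares were 38.9%, 39.7% and 45.6%, and 42.5% of all tested loci outside genes were higher.

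Every P5 library lay above every P4 library at 23 RMER10 and 49 RMER15 loci, against 2.11% of all tested loci, and below at 6 and 13, against 0.753%. The 3 RMER10 loci with the largest rise among them were all RMER10A copies of the zinc finger gene cluster on distal chromosome 4. The copy at chr4:145840090-145840495, 28298 bases upstream of the start of Zfp986, had 0 to 0.267 CPM in P4, with reads in 2 of 12 libraries, and 0.673 to 10.01 CPM in P5, with a median of 2.63. Its mean rose from 0.0437 ± 0.102 to 3.21 ± 2.47 CPM (log2 difference 3.46 ± 0.38, SE; limma FDR = 9.41e-09).

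The copy at chr4:146478208-146478608, in an intron of the noncoding gene Gm26573, had 0 to 1.02 CPM in P4 and 1.09 to 9.99 CPM in P5, with medians of 0 and 3.48 (log2 difference 3.33 ± 0.39, limma FDR = 3.48e-08). The copy at chr4:146065714-146066117, printed above and 31180 bases upstream of the start of Zfp987, had 0 to 4.25 CPM in P4 (median 1.84) and 5.21 to 18.4 CPM in P5 (median 8.86), without overlap (log2 difference 2.99 ± 0.38, limma FDR = 1.51e-07). In P6 this copy had 0.210 CPM in F1 and 0.110 CPM in F3. A further RMER10A copy of the cluster, chr4:147739618-147740021, 13952 bases downstream of Zfp984, was chosen after its values were seen and went from 2.34 ± 1.504 to 8.52 ± 3.84 CPM, with overlapping libraries (log2 difference 1.91 ± 0.30, limma FDR = 5.68e-06). How the authors assigned reads that match several copies is not given in the sources used here.

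Among RMER15 loci without overlap, those with the largest rise lay inside collagen genes. A called RMER15 copy outside genes, starting at chr1:187043588, was not among these. It was chosen after its values were seen, and its log2 difference was 3.54 to 3.91 when single libraries were left out. A pair of copies in a noncoding exon of Col5a3 (chr9:20782788-20783173 and chr9:20783384-20783465) had 0 to 1.19 CPM in P4 and from 1.51 CPM in P5 up to 9.18 and 8.13 CPM. Their means were 0.237 in P4 and 5.25 ± 2.79 and 5.08 ± 2.41 in P5 (log2 difference 3.73 for both, with SE 0.39 and 0.38). The copy in an intron of Col24a1 (chr3:145383933-145383988) went from 0 to 0.475 CPM in P4 to 1.40 to 5.65 CPM in P5 (log2 difference 3.16 ± 0.35).

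The 6 loci named by the same rule among those lower in P5 were intronic. In RMER10 they were the RMER10B copy in Lrrc27 (chr7:139235239-139235583), at 28.9 to 42.3 CPM in P4 and 15.3 to 28.5 in P5 (log2 difference −0.80 ± 0.11), and the RMER10A copy in Hdgfl3 (chr7:81910211-81910651), at 41.4 to 57.5 and 22.2 to 37.6 CPM (−0.74 ± 0.09). The third was the RMER10B copy in Baiap2, an adaptor protein gene (chr11:119973393-119973470), at 56.5 to 87.8 and 35.1 to 56.3 CPM (−0.61 ± 0.10). In RMER15 they were copies in Pabpc4, a poly(A)-binding protein gene, with 5.72 to 11.2 and 2.15 to 5.08 CPM (−1.001 ± 0.15), in the complement gene C3, with 43.7 to 59.7 and 23.8 to 33.1 CPM (−0.82 ± 0.09), and in Ddc, the gene of DOPA decarboxylase, with 7.76 to 11.97 and 4.42 to 7.51 CPM (−0.81 ± 0.13). The limma FDR was at most 9.74e-06 at these loci.

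**Figure D3:**
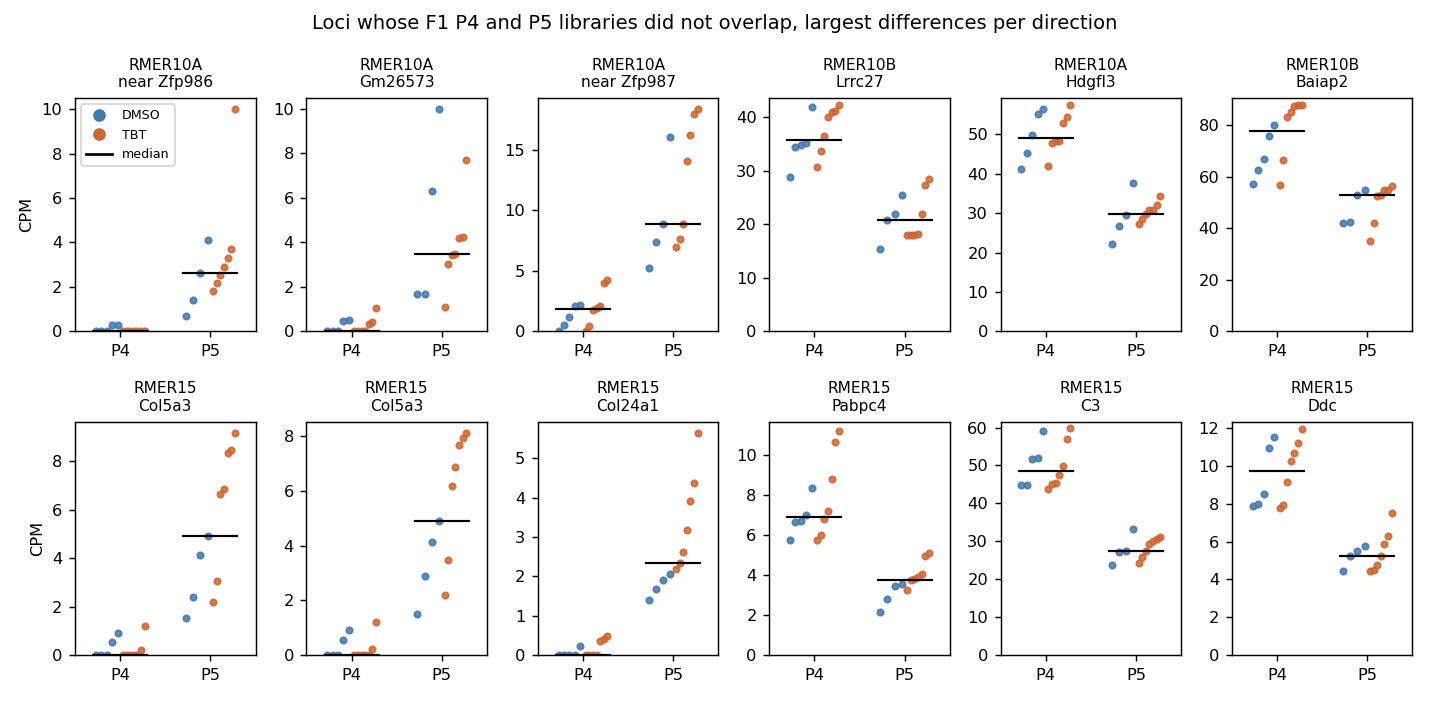
Level in CPM of the RMER10 (top) and RMER15 (bottom) loci with the largest differences per direction among those whose F1 P4 (n = 12) and P5 (n = 11) libraries did not overlap. Points are libraries coloured by exposure and bars are medians. The RMER10A copies near Zfp986 and Zfp987 and in Gm26573 rise in P5, while copies in Lrrc27, Hdgfl3, Baiap2, Pabpc4, C3 and Ddc fall.

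The totals of the species were read from all their loci and from those outside genes. The latter sum was chosen after values were seen. Over all loci, each species was slightly lower in F1 P5 than in P4, with log2 differences of −0.11 ± 0.03 (RMER10A), −0.19 ± 0.04 (RMER10B), −0.17 ± 0.04 (RMER15) and −0.16 ± 0.04 (RMER15-int) and limma FDR of 0.00261, 0.000649, 0.00135 and 0.000933. Of all 664 species 67.5% were called and their median was −0.07. With a common total these 4 differences were between −0.03 and 0.05, none called. RMER10A was then above 0, RMER10B and RMER15 stayed below 0, and RMER15-int was at 0.000104 (F1 P5 minus P4 RMER15-int total). Outside genes the totals rose in P5, by 1.416 ± 0.13, 0.99 ± 0.13, 0.78 ± 0.09 and 1.57 ± 0.13 on the log2 scale. This was not particular to them, since 94.1% of 589 species were called, 93.9% higher and 0.17% lower, and the median was 1.34. Among these, RMER15 ranked 502 and RMER10B 446 from the highest.

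By library, RMER10 loci outside genes took 0.0136% to 0.0229% of all LTR reads in F1 P4 and 0.0293% to 0.0649% in P5, without overlap. RMER15 loci took 0.0409% to 0.0553% and 0.0719% to 0.132%, again without overlap. In F1 P6 these shares were 0.00214% to 0.00577% and 0.0128% to 0.0294%, except in TBT libraries 7 and 8. Those had 0.0389% and 0.0381% for RMER10 and 0.131% and 0.135% for RMER15. In this group all LTR loci outside genes took between 0.999% and 6.95% of the reads, with a median of 1.59%. Without both libraries no RMER10 or RMER15 locus was called between TBT and DMSO in F1 P6 either. The unadjusted limma p was below 0.05 at 41 and 103 of them, and at 4743 of all 87910 tested loci. In F3 P4 the shares ran from 0.0167% to 0.146% for RMER10 and 0.0498% to 0.294% for RMER15, and in F3 P5 from 0.0518% to 0.251% and 0.108% to 0.604%. The highest F3 values were those of TBT library 5 in both populations, and counts without either library are given below.

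**Figure D4:**
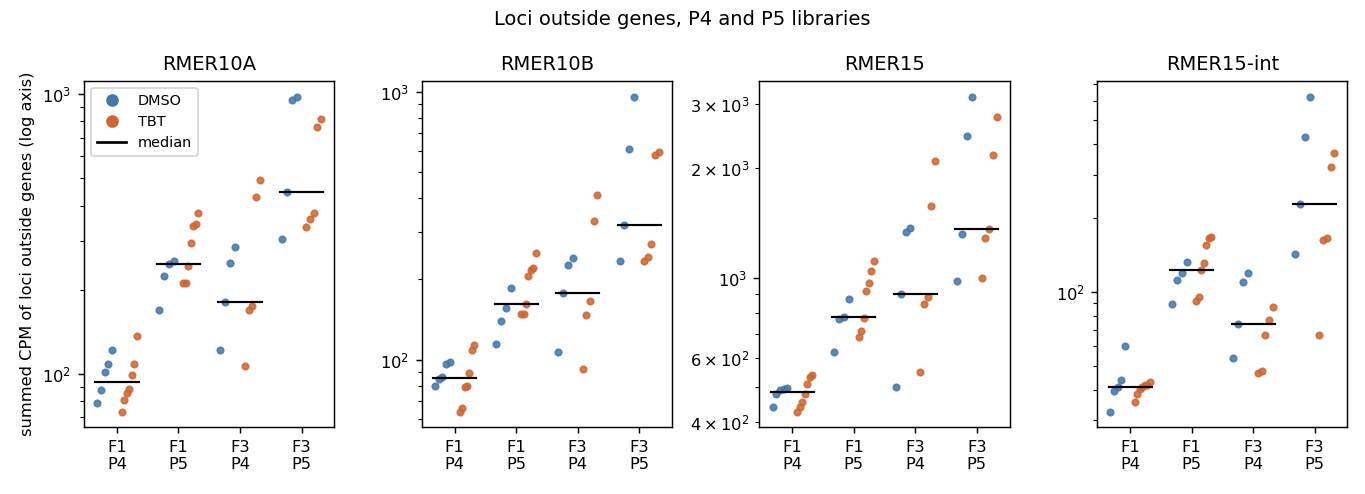
Summed CPM (log axis) of the loci outside genes of RMER10A, RMER10B, RMER15 and RMER15-int in the P4 and P5 libraries of F1 and F3. Points are libraries coloured by exposure and bars are medians. P5 lies above P4 in F1 for each species, and the libraries of F3 overlap.

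The level of single loci outside genes was low except at a few RMER15 copies, which were chosen after their values were seen. The RMER15 copy 4484 bases upstream of Zbtb8a, printed above, was the highest in germ cells. In F1 it had 14.1 to 28.8 CPM in P4 (median 23.0) and 34.1 to 60.9 CPM in P5 (median 38.4), so that all 11 P5 libraries lay above all 12 P4 libraries (log2 difference 0.81 ± 0.11, limma FDR = 5.65e-07). In F3 it had 1.35 to 61.7 CPM in P4 (median 21.5) and 59.1 to 216 in P5 (median 101), with 8 of 9 P5 libraries above all P4 libraries (log2 difference 2.70 ± 0.65, limma FDR = 0.0308). In P6 it was nearly silent, with 0 to 1.04 CPM in F1 and 0 to 1.49 in F3. A neighbouring RMER10B copy, at chr4:129381220-129381652 and 3103 bases upstream of Zbtb8a, had means of 3.27 ± 2.46 and 6.11 ± 4.61 CPM in F1 P4 and P5 and no read in any of the 12 F1 or 9 F3 P6 libraries. A count of 0 in such a library allows up to 3 reads, or 0.386 to 1.16 CPM.

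A further RMER15 copy was somatic. At chr2:31948669-31949187, 951 bases upstream of Aif1l, an actin-binding protein gene, the level was 38.8 ± 16.8 CPM in F1 P6 (6.17 to 60.8, median 42.1) and 51.8 ± 14.2 in F3 P6 (28.0 to 68.3, median 53.2). In germ cells it was 1.60 and 3.43 CPM in F1 P4 and P5 and 2.37 and 2.97 in F3. The RMER15 copy 653 bases downstream of Zfp869 (chr8:69705567-69705678) was read in all populations, at 12.1, 15.03 and 19.1 CPM in F1 P4, P5 and P6. Outside genes RMER10 stayed lower, and its highest loci in F1 P4 had 4.10 ± 1.61 CPM (RMER10B, 1270 bases upstream of Kdm8, chr7:125442984-125443405), 3.92 ± 2.52 (RMER10B, 13532 bases downstream of Mrps9) and 3.39 ± 1.73 (RMER10A, 1456 bases upstream of Anapc1).

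In F3, 5 of 876 tested RMER10 loci and 13 of 1925 RMER15 loci were called between P5 and P4, all higher in P5, against 1.01% of all 98076 loci, with 1% called higher and 0.0112% lower. This direction did not hold under every setting. In DMSO libraries alone all 8 RMER15 calls were lower in P5 (all loci, 67 higher and 85 lower), and with a common total 16 were higher and 8 lower (1352 and 74). With the replicate block 23 RMER15 calls were higher and 7 lower (1804 and 86), and without P5 TBT library 8, 6 were higher and 8 lower (601 and 134). In RMER10, 28 were higher and 4 lower without libraries under 2000000 reads (3511 and 444), 61 and 2 by the likelihood ratio test (6967 and 180), and 5 and 1 without P5 TBT library 8. Outside genes 2 of 134 RMER10 loci (1.49%) and 4 of 225 RMER15 loci (1.78%) were called, against 4.47% of all tested loci outside genes. Every P5 library lay above every P4 library at 3 RMER10 loci and 1 RMER15 locus, against 0.111% of all loci, and below at 0 and 2, against 0.0051%. The largest rise was at an RMER10A copy 1749 bases upstream of Sik1, a salt-inducible kinase gene (chr17:31857554-31857958). It had a read in 1 of 9 P4 libraries, at 0.4658 CPM, and 2.09 to 39.4 CPM in all 9 P5 libraries, with a median of 6.78 (log2 difference 4.91 ± 0.75, limma FDR = 0.000631).

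The others without overlap were an RMER10A copy in Pafah1b2 (chr9:46008978-46009349), with 0 to 0.332 CPM in P4 and 0.923 to 42.1 in P5 (4.04 ± 0.72, FDR = 0.00347), and an RMER10B copy in Tstd2 (chr4:46136830-46137170), with 0 to 2.10 and 3.46 to 23.2 CPM (3.48 ± 0.77, FDR = 0.0174). The RMER15 locus was a copy in Ankrd29 (chr18:12296756-12297114), with 0 to 0.8293 and 1.80 to 11.5 CPM (3.25 ± 0.72, FDR = 0.0167). The copy upstream of Zfp986 was higher in F3 P5 too, at 4.27 ± 3.55 against 0.109 CPM (log2 difference 3.05 ± 0.76, limma FDR = 0.0361), and here libraries overlapped. Outside genes the totals rose by 1.30 ± 0.35 in RMER10A, 1.06 ± 0.36 in RMER10B and 1.68 ± 0.37 in RMER15-int, where 59.7% of 603 species were called, 59.5% higher and 0.166% lower, with a median of 1.40, and RMER15 had 0.73 ± 0.35 with an FDR of 0.0712, which passed the threshold with the replicate block. Over all loci 3.02% of 662 species totals were called in F3, none of them of these species. These counts rested on single libraries. Without P5 TBT library 5 the calls rose to 26 in RMER10 and 40 in RMER15, or 2.82% and 1.95% of those tested against 3.06% of all loci. Without P4 TBT library 5 they were 5 and 9, against 0.681% of all loci. Without P5 TBT library 9, P4 DMSO library 3 or P4 DMSO library 4 they dropped to 2 or 3 in RMER10 and to between 3 and 5 in RMER15, against 0.419% to 0.514% of all loci. Without P4 DMSO library 1 or 2, P4 TBT library 7 or 8 or P5 TBT library 6 or 7, 7 or 8 RMER15 loci were called, against 0.505% to 0.765% of all loci.

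TBT and DMSO offspring were compared within each population and generation, to ask whether exposure of the F0 females changed the level of these elements in F1 and F3 testis cells. A single locus passed an FDR of 0.05 in the 6 comparisons. In F1 P4, 0 of 762 RMER10 and 0 of 1875 RMER15 loci were called by limma, against 0% of all loci. The unadjusted p was below 0.05 at 64 and 136 of them, and at 6496 of all 91621 tested loci. In F1 P5 1 of 1042 and 0 of 2411 were called, against 0.0106% (unadjusted 67 and 186, all loci 8421 of 122303). In F1 P6 it was 0 of 768 and 0 of 1795, against 0.00341% (unadjusted 30 and 75, all loci 3244 of 88037). In F3 P4 it was 0 of 790 and 0 of 1827, against 0% (unadjusted 17 and 48, all loci 1424 of 86412). In F3 P5 it was 0 of 918 and 0 of 1999, against 0% (unadjusted 9 and 17, all loci 1066 of 105423). In F3 P6 it was 0 of 914 and 0 of 2138, against 0.0343%, with 0.02% higher and 0.0143% lower (unadjusted 79 and 177, all loci 8346 of 104835). The quasi-likelihood test of edgeR called no locus of either family in any of the 6 comparisons, and DESeq2 called at most 1 RMER10 and 2 RMER15 loci in each. The likelihood ratio test of edgeR, which the study used, called 29 RMER10 and 65 RMER15 loci in F3 P5, or 3.16% and 3.25% of those tested against 3.15% of all loci, and at most 4 of each family in the other comparisons.

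The called locus was an RMER10A copy at chr10:82082633-82083062, 290 bases upstream of the start of BC024063. In F1 P5 its DMSO libraries had 0, 0.467, 0 and 0.168 CPM, which are 0 to 2 reads, and its TBT libraries 2.38, 1.19, 2.71, 3.89, 3.55, 2.20 and 2.39 CPM, which are 7 to 22 reads. All 7 TBT libraries lay above all 4 DMSO libraries, with means of 2.62 ± 0.894 and 0.159 ± 0.220 CPM (log2 difference 3.18 ± 0.51, limma FDR = 0.0359). By the other tests the FDR was 0.17 (edgeR quasi-likelihood) and 0.0188 (DESeq2), and the call was lost in 8 of 11 fits that left out a library and with the leading number of the library name as a random term. Of the 13 loci called in all, 10 lay outside genes, or 0.0996% of the 10043 tested there. The median log2 difference of loci outside genes was 0.37 over all loci, 0.40 in RMER10 and 0.20 in RMER15. In F3 P5 the called RMER10A locus had 0.492, 6.001, 3.60 and 0.462 CPM in DMSO libraries and 0, 1.46, 2.95, 2.89 and 3.20 CPM in TBT libraries, which overlap.

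At the loci with the lowest p the TBT and DMSO libraries were often apart without passing the adjustment over all loci. The loci were picked by p from these same data, so such a gap follows in part from the choice. In F1 P5, the RMER15 copy in Map4, a microtubule-associated protein gene (chr9:110007995-110008210), had 20.6, 19.6, 17.0 and 25.1 CPM in DMSO libraries and 8.51 to 14.2 CPM in TBT libraries, with a limma FDR of 0.17. In F1 P4 the RMER10A copy in Tdrd9 (chr12:111976532-111976915) had 37.4, 46.96, 44.4, 32.8 and 61.1 CPM in DMSO and 49.2 to 87.6 CPM in TBT libraries, which overlap (FDR = 0.58). In F1 P4 the summed germ cell markers ran from 12670 to 17540 CPM in DMSO and from 14550 to 22300 in TBT libraries, and those of 4 endothelial genes from 12.8 to 23.8 and from 31.2 to 40.6 CPM. The Leydig cell markers ran from 5.87 to 204.5 (median 91.3) and from 3.63 to 34.2 CPM (median 10.1). In F3 P6 the RMER15 copy upstream of Aif1l had 32.9, 49.5, 28.0 and 48.5 CPM in DMSO and 66.0, 54.5, 65.6, 68.3 and 53.2 CPM in TBT libraries, without overlap (log2 difference 0.66 ± 0.14, FDR = 0.12). In F3 P6 the endothelial markers summed to 96.0 to 129 CPM in DMSO and 128 to 160 CPM in TBT libraries, the Leydig cell markers to 36.5 to 62.8 and 25.2 to 36.6 CPM, and the germ cell markers to 14.4 to 242 and 17.4 to 22.8 CPM. The part of these cell types in the values at Tdrd9, Aif1l and the loci that follow was not tested.

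In the same cells the RMER10A copy in Bace2, a protease gene (chr16:97431674-97432041), had 22.8, 22.3, 24.6 and 27.6 CPM in DMSO and 15.4, 18.7, 18.52, 17.6 and 15.8 CPM in TBT libraries (FDR = 0.26). The RMER10A copy in C1qtnf1 had 0.595, 0.901, 0.744 and 1.58 CPM in DMSO and 2.39 to 4.75 CPM in TBT libraries (FDR = 0.18). In F1 P6 the lowest p belonged to copies in Rbms2, Tnfrsf22, Ly86 and Ehmt1, with group means between 0.777 and 11.1 CPM and an FDR of 0.999 for each, and libraries overlapped at all but Rbms2. The copy in Ly86, an immune cell gene, had 0.578 to 1.15 CPM in DMSO and 1.05 to 3.88 CPM in TBT libraries. In these cells the 3 readable of 5 markers of macrophages and other blood cells summed to 24.1 to 34.5 CPM in DMSO and 29.9 to 76.9 CPM in TBT libraries, and the germ cell markers to 24.7 to 32.4 and 29.5 to 49.95 CPM. In F3 P4 an RMER15 copy in Gm29231 (chr19:9609205-9609420) was at 0 in all 4 DMSO libraries and had 55.5, 11.1, 7.74, 6.29 and 44.8 CPM in TBT libraries (FDR = 0.87), and another copy in Psmb1 (chr17:15490700-15490822) had 717 to 1042 CPM in DMSO and 238 to 658 CPM in TBT libraries (FDR = 0.87). In F3 P5 the lowest p belonged to copies in Gm15579 and Ushbp1, at 0 in all 4 DMSO libraries, and to copies upstream of Dock1 and downstream of Chd7, at an FDR of 1. The remaining loci of lowest p lay upstream of Dppa4, in 3110082J24Rik and in Me1 in F1 P4, in Ndfip1 and upstream of Fos in F1 P5, upstream of Grm6 and downstream of Notch4 in F3 P4, and downstream of Zfp982 in F3 P6, all with an FDR of at least 0.189.

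Over the tested loci the median log2 difference between TBT and DMSO followed that of all loci. In RMER10 and RMER15 it was 0.05 and 0.05 in F1 P4 (all loci, 0.04), 0.03 and 0.02 in F1 P5 (0.03) and −0.03 and −0.03 in F1 P6 (−0.04). With a common total it was −0.02 and −0.02 in F1 P4 (−0.03), so that the sign of these small medians rested on the scaling. In F3 it was −0.56 and −0.62 in P4 (−0.69), 0.17 and 0.25 in P5 (0.15) and 0.04 and 0.02 in P6 (0.02). Without libraries under 2000000 reads the direction in F3 P4 turned, to 0.29 and 0.34 (all loci, 0.38), and in F3 P5 the medians were 0.42 and 0.51 (0.43). No total of a species was called among the 660 to 668 species tested in any comparison. The totals differed by 0.02 to 0.10 in size on the log2 scale in F1 and by at most 0.02 in F3 P6. In F3 P4 the totals of RMER10A, RMER10B, RMER15 and RMER15-int were lower in TBT libraries by −0.27 ± 0.21, −0.42 ± 0.25, −0.42 ± 0.26 and −0.56 ± 0.37, where the median species stood at −0.41. In F3 P5 they were −0.09 ± 0.51, −0.09 ± 0.56, −0.02 ± 0.62 and −0.28 ± 0.65, so that each difference was smaller than its standard error. Without libraries under 2000000 reads 5 of the 8 totals of F3 P4 and P5 changed sign, and of the 24 totals of all comparisons 10 did so with a common total and 10 over loci outside genes, with 0 called under each. The difference of the TBT effect between P5 and P4 was called by limma at 0 RMER10 and 0 RMER15 loci in either generation, against 0.000986% of all loci in F1 and 0% in F3. The unadjusted p was below 0.05 at 40 and 75 loci in F1 and 15 and 23 in F3. Over all loci it was so at 4384 of 101401 in F1 and 1364 of 98076 in F3. DESeq2 called 1 RMER15 locus in each generation, against 0.0197% and 0.0338% of all loci.

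**Figure D5:**
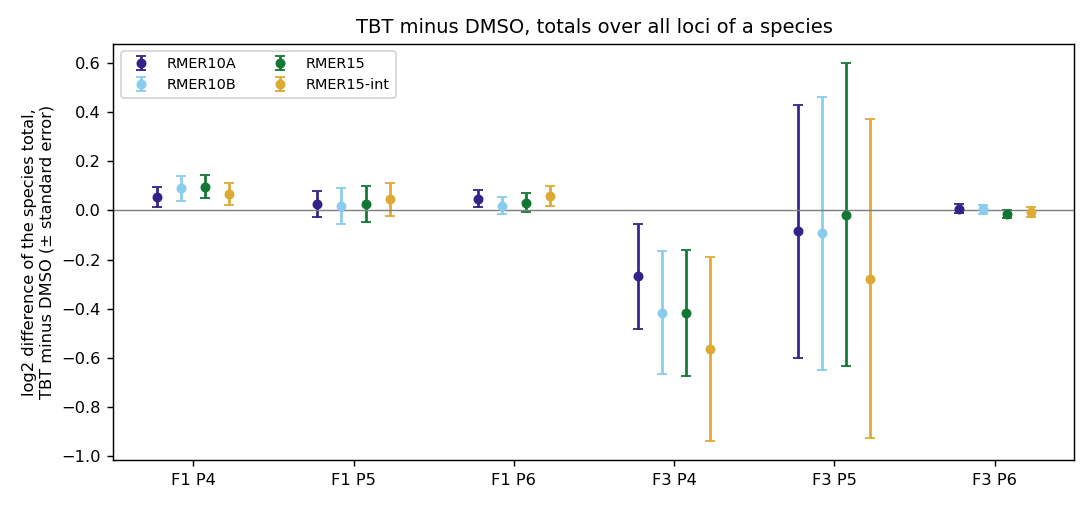
Log2 difference between TBT and DMSO libraries of the total over all loci of RMER10A, RMER10B, RMER15 and RMER15-int, by generation and population. Points are the fitted differences and bars are standard errors. F1 and F3 P6 differences lie within 0.10 of 0, and those of F3 P4 and P5 have standard errors of 0.21 to 0.65.

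In the methylated DNA of P6, RMER windows had lower mean counts than all listed windows. The tables list 100-base windows, of which 124 in F1 and 114 in F3 lay by at least 50 bases in an RMER10 locus and 283 and 294 in an RMER15 locus. RMER10 windows had 0.667 to 0.779 times the mean count of all listed windows in the 7 F1 libraries and 0.471 to 0.627 times in the 12 F3 libraries. RMER15 windows had 0.905 to 0.962 times and 0.722 to 0.883 times. The capture depends on CpG content, and 49.2% and 44.5% of the F1 RMER10 and RMER15 windows held a CpG, against 46.98% of all windows, while in F3 it was 42.98% and 44.2%, against 47.04%. Among windows without a CpG the F1 mean counts were 4.00 in RMER10, 5.23 in RMER15 and 5.32 in all windows, and the F3 mean counts 3.01, 4.34 and 4.49. Among windows with at least 1 CpG the F1 mean counts were 7.48 in RMER10, 9.89 in RMER15 and 10.8 in all windows, and the F3 mean counts 6.07, 8.45 and 11.2. Among windows with at least 2 CpG they were 9.77, 14.5 and 14.1 in F1, where RMER15 was thus not below all windows, and 7.17, 12.6 and 15.6 in F3.

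No member window was called between TBT and DMSO libraries. In F1, 0 of 18 tested RMER10 and 0 of 55 RMER15 windows were called by the quasi-likelihood test of edgeR, against 0.0318% of all 34559 windows (0.00579% higher and 0.026% lower). The unadjusted p was below 0.05 at 0 and 5 of them, and at 1730 of all windows. In F3 0 of 15 and 0 of 73 were called, against 0% of 47563 (unadjusted 2 and 1, all windows 2469). DESeq2 called none either. The window with the lowest p was chr14:76795801-76795900 at the edge of an RMER15-int locus outside genes, with counts of 12, 12 and 13 in DMSO and 23, 31, 39 and 44 in TBT libraries, or 29.0 ± 4.90 and 45.5 ± 6.43 CPM (log2 difference 0.65, edgeR FDR = 0.954). Lower in TBT libraries were an RMER15 window, chr14:114482501-114482600, with 31.9 ± 8.21 and 19.4 ± 8.37 CPM in F1 (FDR = 0.974), and another, chr15:61952001-61952100, with 16.6 ± 3.52 and 11.1 ± 3.38 CPM in F3 (FDR = 0.946). For RMER10 the lowest p belonged to RMER10A windows at chr4:32150601-32150700 and in an intron of Foxn3 (chr12:99224501-99224600) in F1 and at chr3:22007901-22008000 and chr13:107245801-107245900 in F3, and for RMER15 also to a window in an exon of Gm43154 in F3, all with an edgeR FDR of at least 0.946.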

How the data were processed

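Per the labels and the study's methods, the authors trimmed reads with Trim Galore, aligned them with STAR to GRCm38/mm10, counted them over RepeatMasker LTR loci with a modified ERVmap and scaled them by TMM. The deposited signal of each RNA table is thus CPM per locus, with no strand stated, and whole reads were recovered at 100% of values (tolerance 0.01). The deposited MBD counts are reads per 100-base window, not divided by the input library here. No other column of sample values was left over.

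Loci were placed on GENCODE gene models of the same build. RNA was tested with limma 3.58.1 (trended variance) on log2(CPM + 1 unit), 1 unit being close to the CPM of a single read (each library's lowest nonzero value, then the median of these), after dropping loci that averaged under 5 units and with Benjamini-Hochberg adjustment (FDR) over all of them. Fold changes on this scale understate the change of low loci. Species totals were tested over all species, and MBD windows by edgeR 4.0.16 (quasi-likelihood fit). DESeq2 1.42.0 and both edgeR tests on the recovered reads were alternatives, as were scaling, filter, pseudocount, left-out libraries and a replicate block. The tables were normalised separately, so levels are set side by side across them with no test. Intervals and floors cover counting error only. The limma fit and the MBD test were also run on simulated data, whose results are not given here.

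The members and lists were chosen with earlier results of these data known. Named loci are the 3 highest per population and group, the locus of lowest p per direction in each TBT comparison with every called locus, the 3 largest differences per direction among called P5 and P4 loci without overlap, and the MBD windows of lowest p. Leading loci and totals outside genes were added after values were seen. Alignments used blastn 2.17.0+, and sequences were read from the genome with pysam 0.24.0. Other tools were R 4.3.3, bedtools 2.31.1 and samtools 1.23.1.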

Additional observations from a re-analysis of the deposited data

Results flagged for a closer look

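Among 150 groups of 4 to 10 libraries, 16 (10.7%) held a highest or lowest library far from the rest by Dixon's ratio, where chance flags about 1 in 20 groups. As shares of all LTR reads, the highest libraries were F3 P5 TBT library 5 for RMER10A over all loci (0.600%, others 0.450% to 0.477%), for RMER10A outside genes (0.152%) and for RMER15 outside genes (0.576%). RMER15 over all loci was highest in F1 P6 DMSO library 12 (1.86%), F1 P6 TBT library 11 (1.93%), F3 P5 TBT library 8 (2.26%) and F3 P6 TBT library 9 (1.83%). RMER15 outside genes was lowest in F3 P6 DMSO library 1 (0.0135%). RMER15-int was lowest in F1 P5 TBT library 47-3 (0.247%), F3 P5 DMSO library 1 (0.200%) and F3 P5 TBT library 5 (0.137%).

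Of the loci of lowest p between TBT and DMSO, the RMER10A copy in Tnfrsf22 had its highest F1 P6 TBT value in library 5 (7.06 CPM), and the RMER10A copy downstream of Notch4 had, among F3 P4 TBT libraries, a read in library 8 only (0.233 CPM). The RMER10B copy upstream of Grm6 was highest in F3 P4 DMSO library 4 (2.10 CPM) and F3 P4 TBT library 5 (12.9 CPM), and the RMER10A copy upstream of Dock1 had, among F3 P5 TBT libraries, reads in library 9 only (1.46 CPM). DMSO libraries of the same population had reads in 4 of 4 libraries near Notch4 and in 3 of 4 near Dock1. The part of single libraries in these values was not tested.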

How the results depend on the processing

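Values are given as RMER10 then RMER15, and a percentage in parentheses is the share of all loci called. The likelihood ratio test of edgeR called 1 and 1 locus between TBT and DMSO in F1 P4 (0.0939%), 3 and 4 in F1 P5 (0.317%), 29 and 65 in F3 P5 (3.15%) and 4 and 4 in F3 P6 (0.338%), and 1 RMER15 locus in F3 P4 (0.00347%). DESeq2 called 2 RMER15 loci in F1 P5 (0.119%), 1 in F3 P4 (0.00356%) and 2 in F3 P6 (0.66%). Without a filter on low values 11 and 11 loci were called in F1 P5 (0.202%) and 1 RMER15 locus in F3 P6 (0.0367%). The RMER10A locus called in F1 P5 gave 0 calls with the quasi-likelihood test and with the leading number of the library name as a random term. For the difference of the TBT effect between P5 and P4, 1 RMER15 locus was called in F1 by DESeq2 (0.0197%), by the likelihood ratio test (0.0582%), with a pseudocount of 4 units (0.0069%) and with the replicate block (0.00789%), and 1 in F3 by DESeq2 (0.0338%). The cause was not tested in any of these.

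Between P5 and P4, DMSO libraries alone gave 103 and 245 calls in F1 (12.4%) and TBT libraries alone 264 and 633 (28.8%), where fewer samples entered. In F3 the calls were 44 and 66 by the quasi-likelihood test (5.05%), 63 and 93 by the likelihood ratio test (7.29%), 27 and 43 by DESeq2 (4.46%), 2 and 5 without a filter (0.0822%), 8 and 24 with a common total (1.31%; 8 of the 24 lower), 11 and 21 with median-ratio scaling (1.60%) and 32 and 46 without libraries under 2000000 reads (3.65%; 4 and 5 of them lower). They were 0 and 8, all 8 lower in P5, in DMSO (0.145%) and 0 and 0 in TBT libraries alone (0%). The replicate block gave 371 and 943 calls in F1 (44.7%) and 14 and 30 in F3 (1.93%), where 7 of the 30 were lower. Among named loci and totals it changed the call of the RMER15 total outside genes only, as given below. Same-numbered P4 and P5 libraries deviated together with a median correlation of 0.124 in F1 and 0.236 in F3, against −0.00383 and −0.0393 for differently numbered ones. It was over 0.1 in 6 of 11 and 7 of 9 pairs, and 4 and 2 libraries correlated best with their own number. The main fit did not use the number, so a pairing of these libraries enters only through the replicate block.

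The F1 P5 minus P4 RMER10A total, as a log2 difference, was 0.0453 with a common total, 0.0241 with median-ratio scaling and −0.0941 in DMSO libraries alone. With a common total and with median-ratio scaling, the F1 P5 minus P4 RMER10B total was −0.0310 and −0.0522, the F1 P5 minus P4 RMER15 total −0.0123 and −0.0335, and the F1 P5 minus P4 RMER15-int total 0.000104 and −0.0211. In the same order the F3 P5 minus P4 RMER10A total was 0.0715 and 0.33, the F3 P5 minus P4 RMER15 total −0.18 (called) and 0.0750, and the F3 P5 minus P4 RMER15-int total 0.0317 and 0.29, and that of RMER10B was 0.18 with median-ratio scaling. Over loci outside genes the totals of RMER10A, RMER10B, RMER15 and RMER15-int were 1.416, 0.99, 0.78 and 1.57 in F1 and 1.30, 1.06, 0.73 and 1.68 in F3. Scaling moved the median of all F3 loci from −0.09 to 0.11 and 0.28. Outside genes in F3, TBT libraries alone gave 1.08 (RMER10A) and 0.82 (RMER10B), which were not called, and RMER15 was called at 1.29 with median-ratio scaling, at 0.95 without libraries under 2000000 reads and at 0.73 with the replicate block.

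Leaving out each library gave 0 to 1 RMER10 and 0 to 1 RMER15 calls between TBT and DMSO in F1 P5 (0.00327% to 0.0498%), where the RMER10A locus was lost without any of the 7 TBT libraries or DMSO library 44-1. It gave 0 to 1 RMER15 calls in F3 P6 and for the F1 difference of effects, and in F3 P5 minus P4 2 to 26 RMER10 and 3 to 40 RMER15 calls (0.419% to 3.06%). The F3 RMER15-int total ran from −0.45 to 0.0499, the latter without P5 TBT library 5, and the RMER15 total outside genes from 0.59 to 0.87, called without P4 TBT library 9, P5 DMSO library 4 or P5 TBT library 7. No named locus changed direction under any setting. The F3 P5 depth, down to 246520 reads, limits what could be called at low loci.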
